A study of Rattus norvegicus with 3 samples.

Results

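The caspase genes described here are Casp2, Casp4, Casp6, Casp8, Casp9 and Casp12, 6 of the 18425 genes in the deposited expression table, picked by gene symbol. They were measured by RNA sequencing of whole rat retinas at postnatal day 4 (P4), with 1 library for each of 3 conditions. Wild-type Sprague Dawley pups received at P1 an intravitreal injection of 1 µl of citrate buffer, of saline, or of 10 µg streptozotocin (STZ), a glucosamine-nitrosourea that alkylates DNA and had been dissolved in citrate buffer. Citrate buffer is therefore the vehicle control, and saline a second control that does not share the vehicle. The comparisons address whether STZ changed the amount of caspase mRNA in the neonatal retina. How many retinas went into a library is not given in the sources used here. In the study's eye injections at P1, buffer went into the left eye of the animals that received STZ in the right eye, but whether the sequenced buffer and STZ retinas were such pairs is not stated. Other caspase genes are not analysed here.

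Caspases are cysteine proteases made as inactive precursors. Initiator caspases are switched on when adaptor proteins bring their precursors together, caspase-9 on the apoptosome, caspase-8 at death receptors and caspase-2 on the PIDDosome. Executioner caspases, caspase-6 among them, are cut downstream of the initiators and cleave proteins of the dying cell. Caspase-4 (called caspase-11 in older rodent work) and caspase-12 belong to the inflammatory branch, where caspase-4 senses bacterial lipopolysaccharide and cuts gasdermin D. Activity is set mostly by cleavage of the protein, which RNA sequencing does not measure. In the developing retina, apoptosis also removes surplus neurons and progenitors in untreated animals.

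The libraries held 21992702 estimated reads in buffer, 21977843 in saline and 22031249 in STZ, so reads of a gene can be set side by side nearly as they stand. With 1 library per condition there is no replicate check, no spread between animals and no p-value. Every difference below is between libraries, and in bulk tissue more cells of a type and more RNA per cell cannot be told apart. A fold is (FPKM + 1)/(FPKM + 1), where FPKM is the number of fragments scaled to transcript length and library size. A gene counts as higher where the log2 of its fold is above 0.62 and as lower where it is below -0.62, a fold of 0.65. A ratio of read shares is given with an exact 95% counting interval, which covers counting error only. The 12 retinal progenitor and neuron markers were detected in all 3 libraries. Given here and below in the order buffer, saline, STZ, they summed to 41270, 40974 and 41559 reads, with Crx, a photoreceptor factor, at 12972, 11780 and 13849 and Pax6, an eye field factor, at 12271, 12506 and 12605. Other markers differed between the libraries. The 8 lens genes summed to 212, 551 and 2718 reads, the 17 microglia genes to 2183, 2594 and 5575, and the 4 blood genes to 975, 1284 and 710. The sums of the 8 pigment epithelium genes, at 7884, 8375 and 6400 reads, and of the 5 endothelial genes, at 13580, 14951 and 10082, were each carried by 1 gene, Rlbp1 with 6996, 6571 and 5501 reads and Kdr with 13149, 14564 and 9972. The melanin genes Pmel, at 252, 940 and 240 reads, and Tyr, at 16, 118 and 14, set the saline library apart. The endothelial junction genes Cldn5, at 188, 154 and 37 reads, and Cdh5, at 119, 114 and 28, were lower in STZ than in both controls.

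Of the 6 caspase genes, Casp6 was higher in STZ than in both controls and 0 were lower. Casp2 was the most abundant in every library. Against buffer, 1 of 6 was higher, where 2.25% of all genes were, and 0 were lower, where 1.04% were. Against saline, 1 of 6 was higher and 0 were lower, with 2.04% and 1.75% of all genes. Between the controls, 1 of 6 was higher in saline than in buffer and 0 were lower, with 1.00% and 0.429% of all genes. It was Casp6 each time. These comparisons share libraries, so they are not separate evidence. The median log2 fold of the 6 genes was 0.031 against buffer and 0.017 against saline, beside 0.020 and 0.000 over all 18425 genes.

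**Figure D1:**
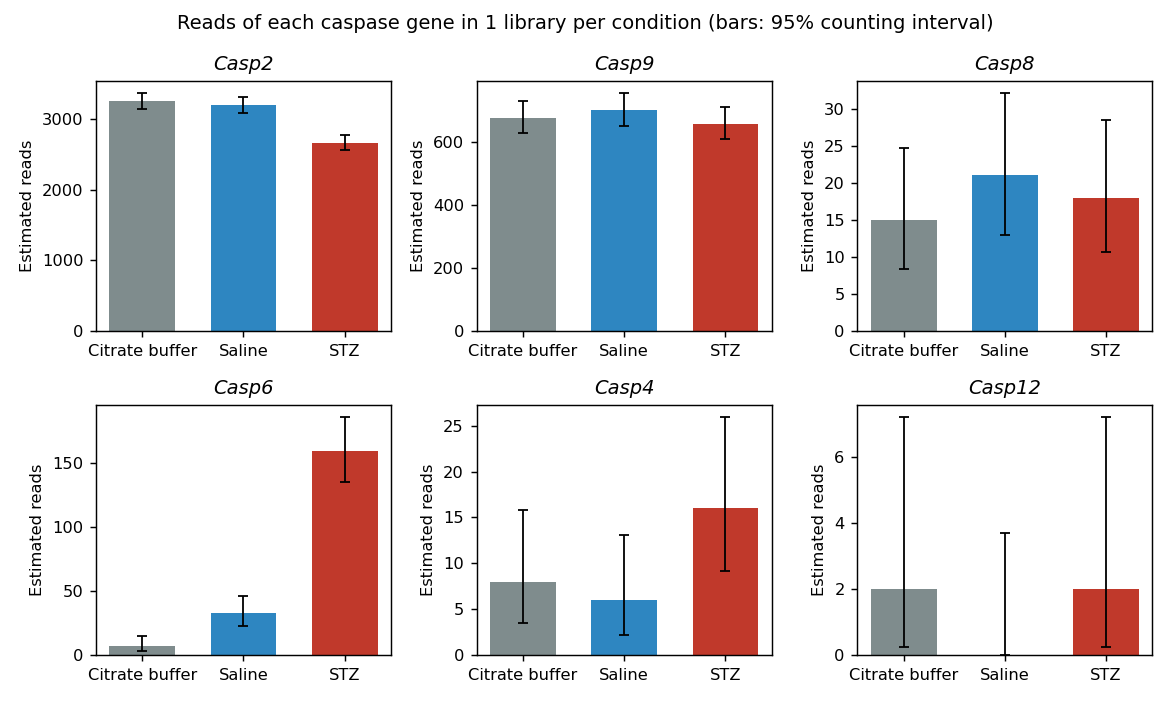
Estimated reads (vertical axes, each starting at 0) of the 6 caspase genes in the buffer, saline and STZ libraries, 1 library each, with exact 95% counting intervals as error bars. Casp6 climbs from 7 reads in buffer to 33 in saline and 159 in STZ, Casp2 is lowest in STZ at 2668 reads, and Casp12 has at most 2 reads.

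The 6 genes spanned a wide range of levels per transcript length. In the buffer library, Casp2 stood at 73.24 FPKM, above 93.1% of all genes in the table. Casp9 followed at 14.59 FPKM, above 62.9%. The other 4 genes were all under 0.5 FPKM in buffer, with Casp4 and Casp8 both at 0.36, Casp6 at 0.22 and Casp12 at 0.09. On this scale Casp2 held 82.4% of the summed caspase FPKM in buffer, 80.6% in saline and 72.2% in STZ. Together the 6 genes summed to 88.9, 88.0 and 74.6 FPKM, and without Casp2 and Casp9 to 1.03, 1.91 and 6.58. In saline Casp6 stood next to Casp9 in the order at 1.10 FPKM, above Casp8 at 0.54 and Casp4 at 0.27, and in STZ it held the same place at 5.35 FPKM, above Casp4 at 0.72 and Casp8 at 0.42. With counting intervals carried to the FPKM scale, Casp4 and Casp8 overlapped in every library, for example at 0.412 to 1.17 and 0.249 to 0.664 FPKM in STZ, so these 2 neighbours in the order could not be ranked. Casp6 overlapped both in buffer, at 0.0940 to 0.481, overlapped Casp8 but not Casp4 in saline, at 0.763 to 1.56, and stood above both in STZ, at 4.54 to 6.24. Of the 6 genes, 5 had a mean of at least 10 reads over the 3 libraries, and Casp4 lay exactly on that limit with a mean of 10 reads.

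The 250 bases before the annotated start are printed here for the most abundant gene, the gene that differed most and the gene barely detected. No link of these sequences to the levels was tested. They come from RefSeq, assembly GRCr8, plus strand, while the submitters' processing notes name the build rn6. For Casp2 and Casp6 the start used is that of 1 transcript and lies downstream of the outermost start of the gene. They lie at chr4:72116107-72116356 for Casp2, chr2:221140136-221140385 for Casp6 and chr8:10926938-10927187 for Casp12. Capitals mark the GC box GGGCGG on either strand, the binding motif of Sp1-type factors.
Casp2: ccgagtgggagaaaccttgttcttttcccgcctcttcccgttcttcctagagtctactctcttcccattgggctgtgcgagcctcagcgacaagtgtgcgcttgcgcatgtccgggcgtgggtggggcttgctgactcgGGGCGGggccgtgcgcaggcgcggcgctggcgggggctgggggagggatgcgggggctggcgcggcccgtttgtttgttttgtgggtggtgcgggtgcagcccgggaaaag
Casp6: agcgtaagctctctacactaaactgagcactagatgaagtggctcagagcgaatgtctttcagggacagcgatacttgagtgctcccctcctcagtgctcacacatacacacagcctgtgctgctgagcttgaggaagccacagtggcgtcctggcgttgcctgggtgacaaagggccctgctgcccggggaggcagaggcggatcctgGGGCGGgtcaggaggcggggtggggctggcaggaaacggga
Casp12: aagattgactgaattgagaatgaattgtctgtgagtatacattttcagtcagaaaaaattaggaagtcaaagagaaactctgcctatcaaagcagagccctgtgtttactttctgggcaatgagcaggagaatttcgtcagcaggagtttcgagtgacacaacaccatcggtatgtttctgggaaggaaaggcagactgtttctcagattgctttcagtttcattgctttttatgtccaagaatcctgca

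The RefSeq table held such a sequence for 4 of the 6 genes, those 3 and Casp9. The G and C content of the 250 bases was 66.8% for Casp2, 73.2% for Casp9, 60.8% for Casp6 and 40.4% for Casp12, beside a median of 51.2% over 33469 promoters of the same length. The GC box occurred once each before Casp2 and Casp6, at 3 places before Casp9 and nowhere before Casp12, and 30.5% of all promoters held at least 1. The CCAAT box, searched as CCAAT on both strands, was found once before Casp2 and not before the other 3, with 34.0% of all promoters. The TATA box, searched as TATAAA, was found before none of the 4, with 12.9% of all promoters. The p53 half-site was also found before none of them, with 6.64% of all promoters. A missing match says only that these letters are not in this window.

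Casp2, which encodes an initiator caspase linked to the DNA damage response and to abnormal mitosis, had 3255 reads in buffer, 3193 in saline and 2668 in STZ. On the FPKM scale these were 73.24, 70.97 and 53.87. The controls lay close together and STZ was the lowest library on both scales. Its fold in STZ was 0.739 with buffer as the control and 0.762 with saline, short of the lower threshold of 0.65. The ratio of read shares was 0.818 against buffer (0.777 to 0.861) and 0.834 against saline (0.791 to 0.878), both intervals below 1. The saline and buffer libraries had a ratio of 0.982 (0.935 to 1.03), an interval that includes 1. The difference of Casp2 in STZ was thus larger than counting error, though not past the fold threshold, and whether it exceeds the variation between animals cannot be told from 1 library each. Its neighbours were Tmem139, with 7, 5 and 11 reads, and Clcn1, a chloride channel gene of muscle, with 94, 108 and 137.

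The size of the Casp2 difference depended on the unit, being larger in FPKM than in reads. The ratio of FPKM between STZ and buffer was 0.736, while that of read shares was 0.818. Each FPKM of Casp2 rested on 44.4 reads in buffer, 45.0 in saline and 49.5 in STZ. This quantity depends on the transcript length and the library size used for the FPKM. Its ratio between STZ and buffer was 1.114 for Casp2 and 1.002 for Casp9. Over the 10296 genes with at least 200 reads in every library the median ratio was 1.002, and 79 of them (0.767%) lay as far from 1 as Casp2. Against saline the ratio was 1.101, and 107 genes (1.04%) lay as far from 1. Between the controls it was 1.012. How transcript length entered the authors' FPKM is not given in the sources used here.

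**Figure D2:**
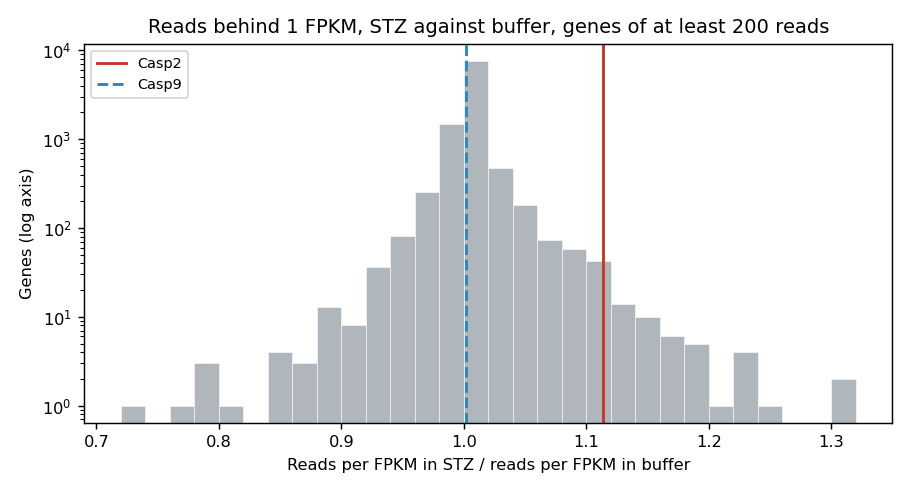
Number of genes (log axis) by the reads behind 1 FPKM in STZ divided by the same in buffer, over 10296 genes with at least 200 reads in every library. Most genes lie near the median of 1.002, where Casp9 also lies (dashed line), while Casp2 (solid line) lies at 1.114.

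Casp9, the initiator that is activated on the apoptosome after cytochrome c leaves the mitochondria, was nearly level across the libraries. Its reads numbered 678 in buffer, 702 in saline and 659 in STZ, at 14.59, 15.13 and 14.15 FPKM. The STZ library gave a fold of 0.972 against buffer and of 0.939 against saline. The ratio of read shares was 0.970 against buffer (0.870 to 1.08) and 0.936 against saline (0.841 to 1.04). Both intervals include 1 and neither reaches a threshold. Casp2 stood at 5.02 times the FPKM of Casp9 in buffer, at 4.69 times in saline and at 3.81 times in STZ. In GRCr8 the annotated span of Casp9 overlaps that of Cela2a, a pancreatic elastase gene that is not analysed here. Dnajc16, a heat shock protein family gene on the other side, had 612, 608 and 612 reads.

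Casp8, the initiator recruited by death receptors, was weakly expressed in all 3 libraries. It had 15 reads in buffer, 21 in saline and 18 in STZ, at 0.36, 0.54 and 0.42 FPKM. Saline was the highest library and STZ lay between the controls. Folds in STZ were 1.04 with buffer and 0.922 with saline as the control, and the ratios of read shares were 1.20 (0.570 to 2.55) and 0.855 (0.429 to 1.69). A change of Casp8 within these bounds was not detectable at this depth. In GRCr8 the annotated span of Casp8 overlaps that of Cflar, which encodes the caspase-8 regulator c-FLIP. Cflar had 194, 240 and 237 reads, and how the authors assigned reads in the shared bases is not given in the sources used here. The gene on the other side, Flacc1, had 1 read in each library.

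Casp6, which encodes an executioner caspase that cuts the nuclear lamin A, showed the largest difference of the 6 genes. It had 7 reads in buffer, 33 in saline and 159 in STZ, rounded from 6.59, 32.76 and 159.22, at 0.22, 1.10 and 5.35 FPKM. STZ was the highest library and the controls differed from each other as well. STZ gave a fold of 5.20 against buffer and of 3.02 against saline, and saline one of 1.72 against buffer. The ratio of read shares between STZ and buffer was 22.7 (10.8 to 57.3). Between STZ and saline it was 4.81 (3.29 to 7.22), and between saline and buffer 4.72 (2.05 to 12.6). All 3 intervals lie above 1, and those of the reads do not overlap, at 2.81 to 14.4, 22.7 to 46.3 and 135 to 186. The fold is smaller than the read ratio because 1 FPKM is added on both sides and the buffer level was 0.22 FPKM, and without that addition the ratio of FPKM was 24.3.

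Casp6 was the only one of the 6 genes whose read counts were not whole numbers. A count was taken as fractional where it lay over 0.001 from a whole number, and 2858 of the 18425 genes had at least 1. Why some counts are fractional is not given in the sources used here. Of those genes, 3.60% were higher in STZ than in buffer, against 2.25% of all genes. RefSeq lists 3 Casp6 pseudogenes in GRCr8 and none for the other 5 genes. None of the 3 has a row in the deposited table. Reads with several locations were discarded per the study's methods, but how reads from a near-identical copy were counted cannot be told from the table. The Casp6 counts are therefore uncertain, and the part of such copies in the difference was not tested.

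The genes on either side of Casp6 did not follow it. Pla2g12a, a phospholipase gene on one side, had 445, 495 and 470 reads, with a ratio of 1.05 in STZ against buffer (0.924 to 1.20). Mcub, which encodes a regulatory subunit of the mitochondrial calcium uniporter on the other side, had 39, 45 and 47 reads, with a ratio of 1.20 (0.770 to 1.89).

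The marker lists of lens and microglia were highest in STZ, like Casp6. The summed lens reads had ratios of 12.8 in STZ against buffer (11.1 to 14.8), 4.92 in STZ against saline (4.49 to 5.4) and 2.60 between saline and buffer (2.22 to 3.06). Of the 8 lens genes, 6 were higher in STZ than in buffer, 4 higher in STZ than in saline and 5 higher in saline than in buffer. The shares of all genes in these comparisons were 2.25%, 2.04% and 1.00%. Cryaa, the αA-crystallin gene, had 55, 211 and 928 reads, and Cryba1, a β-crystallin gene, 22, 62 and 731. Cryab, by contrast, was highest in saline at 9, 81 and 64 reads, and Mip was nearly level at 73, 73 and 86. Crybb2 was the only lens marker at 0 in a library, in buffer, with 3 reads in saline and 6 in STZ. The summed microglia reads had ratios of 2.55 in STZ against buffer (2.43 to 2.68) and 1.19 between saline and buffer (1.12 to 1.26). Of the 17 genes, 13 were higher in STZ than in both controls, and none was at 0 in any library. Of all genes, 2.25% were higher in STZ than in buffer and 2.04% higher than in saline, and the share higher than both is not given. Between the controls, 1 of the 17 was higher in saline, beside 1.00% of all genes. Csf1r, the receptor that microglia need to survive, had 449, 540 and 905 reads. The part of lens or microglial RNA in the Casp6 difference was not tested.

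**Figure D3:**
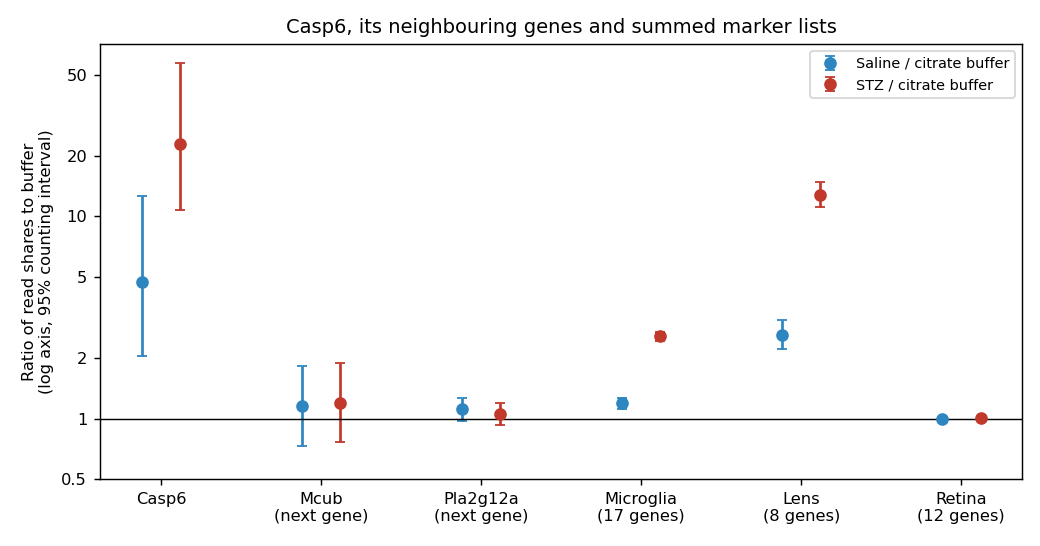
Ratio of read shares to the buffer library (log axis) for saline and STZ, with exact 95% counting intervals, for Casp6, its neighbouring genes and summed marker lists. Casp6 lies at 4.72 in saline and 22.7 in STZ, the lens list at 2.60 and 12.8 and the microglia list at 1.19 and 2.55, while Mcub, Pla2g12a and the retina list stay near 1.

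On the fold scale, the genes with a pattern most like that of Casp6 were Tyrobp, Lyz2 and Psmb9. Likeness was the distance between the log2 fold changes in STZ and in saline, each against buffer, over 14885 genes with a mean of at least 10 reads, and it rests on 3 libraries. These folds include the added 1 FPKM, which holds down those of Casp6. By ratios of read shares in STZ and in saline against buffer, Casp6 stood at 22.7 and 4.72 and Tyrobp at 4.99 and 1.75. Likeness by read ratios was not computed. Tyrobp, a signaling adaptor that is also in the microglia list, had 36, 63 and 180 reads at a distance of 0.268. Lyz2, a lysozyme gene of macrophages, had 86, 195 and 456 reads at a distance of 0.325, and its counts are also fractional. Psmb9, an immunoproteasome subunit, had 14, 31 and 102 reads at a distance of 0.384.

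Casp4, the inflammatory caspase of the non-canonical inflammasome, had few reads. It had 8 in buffer, 6 in saline and 16 in STZ, at 0.36, 0.27 and 0.72 FPKM. STZ was the highest library. Neither its fold of 1.26 against buffer nor that of 1.35 against saline passed the upper threshold. The ratio of read shares was 2 against buffer (0.806 to 5.39) and 2.66 against saline (0.989 to 8.30), and both intervals include 1. A pseudocount of 0.1 in place of 1 would place Casp4 past the upper threshold against both controls, as the closing section sets out. The microglia list, at ratios of 2.55 against buffer and 2.14 against saline, moved in the same direction. So did the lens list, at 12.8 and 4.92. The part of either list in the Casp4 values was not tested.

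Casp12, which lies beside Casp4 in the genome and has been studied for its link to endoplasmic reticulum stress, was barely detected. It had 2 reads in buffer, 0 in saline and 2 in STZ. A count of 0 allows up to 3 reads, so the 3 libraries were all at or under the limit of detection and no fold is given. Pdgfd, a growth factor gene on the other side of Casp12 in GRCr8, had 121, 114 and 104 reads.

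**Figure D4:**
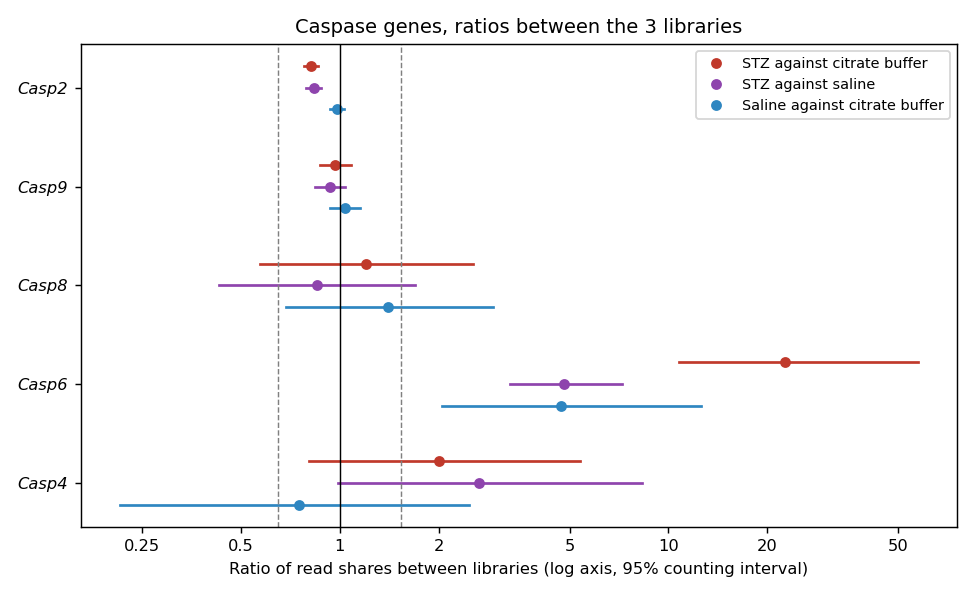
Ratio of read shares between libraries (log axis) for 5 caspase genes in the 3 comparisons, with exact 95% counting intervals. Dashed lines mark the lower and upper thresholds and the solid line marks 1, and Casp12 is left out because it had at most 2 reads. All 3 intervals of Casp6 lie above the upper dashed line, those of Casp2 in STZ lie between 0.65 and 1, and those of Casp9, Casp8 and Casp4 include 1.

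Partners of the caspases were followed in a list of 48 genes, of which 46 were found in the table. Against buffer, 4 of the 46 were higher and 0 lower, where 2.25% and 1.04% of all genes were. Against saline, 2 were higher and 0 lower, where 2.04% and 1.75% of all genes were, and between the controls none passed either threshold. Their median log2 fold was 0.05 against buffer and 0.04 against saline, beside 0.020 and 0.000 over all genes. The higher genes were Pycard, Il18, Aim2 and Gsdmd against buffer, and Pycard and Il18 against saline, all of the inflammatory branch. By the ratio of read shares in place of the fold, counted only where its interval also excluded 1, 6 were higher against buffer. Among them was the death receptor gene Fas, and the share of all genes past this rule was not computed.

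Among the 9 genes of the initiator platforms, none passed a fold threshold in any comparison. The reads of the death receptor genes Fas and Tnfrsf10b, upstream of caspase-8, differed between libraries, while those of Tnfrsf1a differed less. Tnfrsf1a had 219, 251 and 260 reads, with a ratio of 1.19 against buffer (0.986 to 1.43) and of 1.03 against saline (0.865 to 1.23). Fas had 3 reads in buffer, 5 in saline and 28 in STZ, with a ratio of 9.32 against buffer (2.88 to 47.9) and of 5.59 against saline (2.13 to 18.5). At 0.06, 0.10 and 0.55 FPKM its fold was 1.46 against buffer, held down by the added 1 FPKM. Tnfrsf10b, a receptor of the ligand TRAIL, went the other way with 25, 23 and 8 reads, and its ratio was 0.319 against buffer (0.125 to 0.731) and 0.347 against saline (0.134 to 0.804). Cycs, which encodes cytochrome c, had 1793 reads in buffer, 1645 in saline and 2549 in STZ. STZ was the highest library, with a log2 fold of 0.50 against buffer and of 0.62 against saline, the latter just under the unrounded threshold, and its counts are fractional. Apaf1, the scaffold of the apoptosome that activates caspase-9, had 1491, 1509 and 1669 reads, with a ratio of 1.12 in STZ against buffer (1.04 to 1.20). Fadd and Ripk1, which act beside caspase-8 at death receptors, had 85, 100 and 81 reads and 775, 823 and 774 reads. The ratio of STZ to buffer was 0.951 (0.693 to 1.31) for Fadd and 0.997 (0.901 to 1.10) for Ripk1, both with intervals that include 1. Cradd, the adaptor of caspase-2 in the PIDDosome, had 36, 40 and 33 reads and a ratio of 0.915 (0.553 to 1.51).

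The inhibitors and their antagonists held none past a threshold in either direction. Of the 7 inhibitors, Birc6, a large inhibitor of apoptosis protein, had 5949, 5844 and 5082 reads, lowest in STZ with a ratio of 0.853 against buffer (0.821 to 0.885). Xiap, which blocks caspase-9 and executioner caspases, had 1943, 1930 and 2011 reads and a ratio of 1.03 (0.970 to 1.10). Cflar had a ratio of 1.22 against buffer (1.00 to 1.48) and of 0.985 against saline (0.820 to 1.18). The IAP antagonists found were Diablo and Htra2, mitochondrial proteins that displace inhibitors from caspases. Diablo had 1397, 1399 and 1377 reads and Htra2 had 733, 674 and 749.

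Of the 13 substrates, Gsdmd was higher against buffer and none was lower, where 2.25% and 1.04% of all genes were. Gsdmd encodes gasdermin D, the pore-forming substrate of caspase-4, and had 53 reads in buffer, 63 in saline and 100 in STZ. Its log2 fold was 0.63 against buffer, just past the threshold, and 0.48 against saline, with ratios of 1.88 (1.34 to 2.68) and 1.58 (1.14 to 2.21). Lmna, the lamin A gene whose product caspase-6 cuts, had 340, 314 and 378 reads and a ratio of 1.11 against buffer (0.956 to 1.29). The most abundant substrates were Sptan1, αII-spectrin, with 16504, 14909 and 17822 reads, and Acin1, a chromatin condensation factor, with 10835, 10652 and 10546. Their ratios in STZ against buffer were 1.08 (1.06 to 1.10) and 0.972 (0.946 to 0.998).

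Of the 8 inflammasome genes, 3 were higher in STZ than in buffer and 2 higher than in saline. The shares of all genes were 2.25% and 2.04%. All 8 inflammasome genes had low counts, and they summed to 106, 138 and 232 reads. Pycard, the adaptor ASC, had 5 reads in buffer, 3 in saline and 19 in STZ, with folds of 2.09 against buffer and 2.48 against saline and ratios of 3.79 (1.37 to 13) and 6.32 (1.86 to 33.3). Il18, a cytokine that inflammatory caspases mature, had 5, 8 and 24 reads, with folds of 2.22 and 1.85 and ratios of 4.79 (1.79 to 16.1) and 2.99 (1.30 to 7.71). Aim2, a DNA sensor, had 22, 31 and 49 reads and a fold of 1.56 against buffer, and of 1.29 against saline, short of the threshold. Nlrp3, another sensor, had 36, 39 and 79 reads and a fold of 1.34 against buffer, also short, with a ratio of 2.19 (1.46 to 3.35). For these 4 genes STZ was the highest library, as it was for the 17 microglia genes and for the summed lens reads. The part of either list in these values was not tested. Nlrc4, with 13, 18 and 24 reads, and Nlrp1a, with 20, 26 and 31, were also highest in STZ. Saline was highest for Il1b, with 5, 6 and 3 reads, and for Nlrp6, with 0, 7 and 3. The ratio of Il1b in STZ against buffer was 0.599 (0.093 to 3.08).

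The 7 endoplasmic reticulum stress partners held none past a threshold. Hspa5, the chaperone BiP, had 7750 reads in buffer, 7386 in saline and 10260 in STZ, with a fold of 1.32 against buffer, 1.38 against saline and a ratio of read shares of 1.32 (1.28 to 1.36) against buffer. Ern1 and Traf2, the sensor IRE1 and an adaptor that have been linked to caspase-12, had 947, 1001 and 933 reads and 676, 833 and 659 reads. Both were highest in saline. Capn2, a calpain, had 2142, 2202 and 2129 reads.

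**Figure D5:**
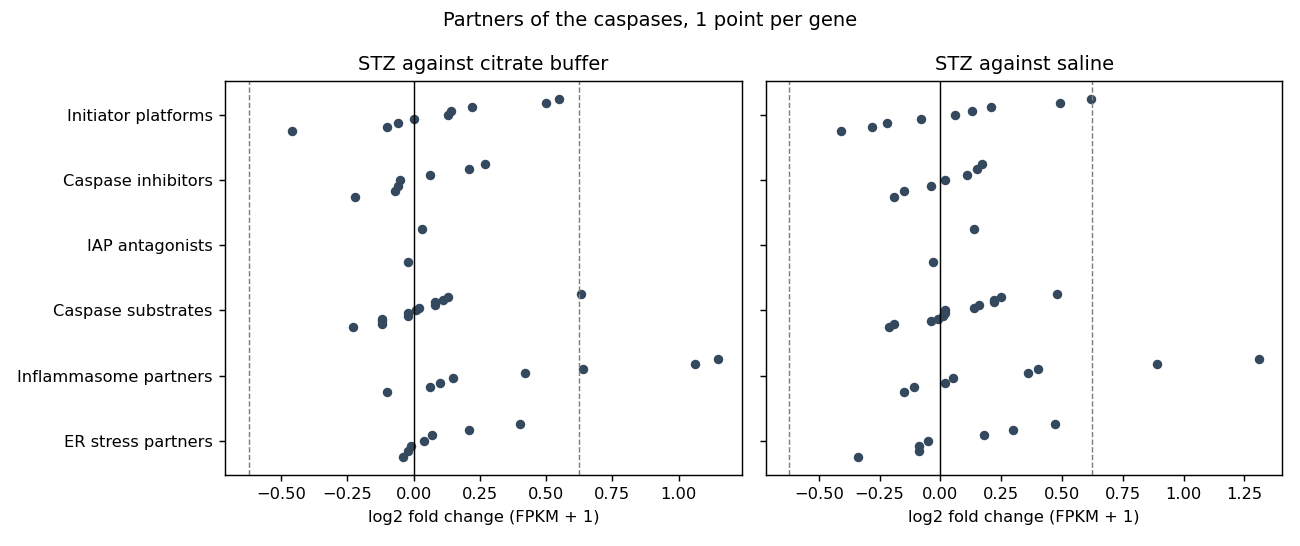
The log2 fold change (FPKM + 1) of each of the 46 partner genes, 1 point per gene, in STZ against citrate buffer and in STZ against saline, by list. Dashed lines mark the thresholds of -0.62 and 0.62. Only inflammasome partners and 1 substrate pass the upper line against buffer, 4 genes in all, and no gene passes the lower line.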

How the data were processed

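Total RNA of rat retinas was sequenced by the authors on an Illumina HiSeq instrument after TruSeq library preparation. Per the study's methods and the submitters' processing notes, reads were checked with FastQC, trimmed, and mapped to the rat genome (build rn6) with TopHat2. Reads with several locations were discarded and FPKM was computed with a custom R script. The annotation and the tool behind the counts are not given in the sources used here. For each gene and library the authors deposited FPKM, TPM and an estimated count. The deposited estimated counts are fractional for 12.9% to 13.2% of the values in a library, and intervals were computed on rounded counts. The series table and the library tables differed by 0.

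The 6 caspase rows were found by gene symbol. Folds were computed on FPKM over all 18425 genes, with the pseudocount of 1 and the thresholds of the study's methods. Ratios of read shares have Clopper-Pearson intervals and read counts exact Poisson intervals, both at 95%. Reads copied by PCR and not marked by molecular identifiers are not independent, so intervals cover counting error only. No ratio is given where both libraries are at or under 3 reads. No count model was fitted, since there are no replicates. The members and gene lists were chosen with earlier results of these data known.

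The genes named were all 6 caspase genes, partners past a threshold in STZ against both controls, the 2 members of each partner list with the most reads, partners tied to a caspase, the 3 genes most like Casp6, the genes next to a caspase gene in RefSeq's order, and the 2 most abundant lens and retina markers. Of the microglia markers, 1 of the 2 most abundant is not reported here. Crybb2, Cryab, Mip, Rlbp1, Kdr, Pmel, Tyr, Cldn5, Cdh5, Tnfrsf1a, Il1b, Nlrp6, Nlrc4 and Nlrp1a were named after their values were seen. All 6 gene identifiers matched RefSeq's table for GRCr8, from which names, gene order and promoter sequences were taken.

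The folds were also computed with a pseudocount of 0.1, with thresholds of 2 and 0.5, on TPM, on CPM from the counts, after scaling by TMM factors of edgeR 4.0.16 or median-of-ratios factors of DESeq2 1.42.0, with a minimum mean of 10 reads, as the ratio of read shares, against the mean of both controls and, added after the data were seen, over genes with whole-number counts. For numbers of genes, a ratio of read shares past a threshold counted only where its interval also excluded 1. R 4.3.3, Python 3.11.15, numpy 2.4.6, pandas 2.3.3, scipy 1.17.1 and matplotlib 3.10.9 were used. The calculations were tested on simulated data.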

Additional observations from a re-analysis of the deposited data

How the results depend on the processing

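Of the 56 alternative numbers of caspase genes past a threshold, 48 equalled the reported one, and no fold of a gene past a threshold reversed. With genes of whole-number counts only, 0 caspase genes were higher in each of the 3 comparisons, in place of 1, because Casp6 is left out. With a pseudocount of 0.1, 2 were higher in STZ against buffer (Casp6 and Casp4) and 3 against saline, the third being Casp12 at 2 reads against 0, and 1 was lower in saline against buffer, again Casp12. With TPM, 2 were higher in STZ against saline, and with thresholds of 2 and 0.5, 0 were higher in saline against buffer. The share of all genes past a threshold is not given for these other settings, nor for those of the partners below. Whether these numbers stand apart from all genes can therefore not be told. The fold of Casp6 in STZ against buffer ranged from 5.13 with TMM scaling to 17 with a pseudocount of 0.1. Against the mean of both controls it was 3.83, and the ratio of read shares against buffer was 22.7. For Casp2, the fold in STZ against buffer ranged from 0.719 with TMM scaling to 0.819 on CPM.

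Among the partners, 4 were higher in STZ against buffer, and 2 with TMM scaling, with median-of-ratios scaling or with thresholds of 2 and 0.5. It was 3 with a minimum mean of 10 reads, 5 with TPM or CPM, and 6 with a pseudocount of 0.1 or the ratio of read shares. Here and below, that ratio counted only where its interval also excluded 1. The 0 lower became 1 with a pseudocount of 0.1, TPM, CPM or the ratio of read shares. Against saline, 2 were higher, and 7 with a pseudocount of 0.1, 4 with TPM, 6 with the ratio of read shares, and 1 with thresholds of 2 and 0.5 or a minimum mean of 10 reads. There, 1 was lower in place of 0 with a pseudocount of 0.1, TPM or the ratio of read shares. In saline against buffer, 1 was higher in place of 0 with a pseudocount of 0.1 or the ratio of read shares. No paired analysis was possible because each condition has 1 library, so leaving out a replicate was not possible either. Depth limits Casp8 and Casp4 to wide intervals, and no fold is printed for Casp12.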
